A study of Homo sapiens with 8 samples.

Results

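POU5F1, NANOG, SOX2, PRDM14, ZFP42, SALL4, LIN28A, LIN28B, L1TD1 and DPPA4 are 10 genes that mark and maintain the pluripotent state of human embryonic stem cells (hESCs). They were taken by symbol from the 60675 genes of the RNA-seq tables, each matching 1 identifier, and all 10 passed the filter on low counts that left 19499 genes for testing. The cells were H9 (WA09), an established hESC line derived from a blastocyst, grown without feeder cells on Matrigel in mTeSR1 medium. The study's own list of culture reagents names iPSC-brew and does not name mTeSR1. The 4 lines were H9 hESCs carried for different times in culture, labelled as passage 40s (P1), 100s (P2), 200s (P3) and 300s (P4), with 2 samples per line and no treatment in any group. P1 and P2 hESCs are called early and P3 and P4 hESCs late. The study describes P3 and P4 hESCs as culture-adapted cells with a copy number gain at a locus on the long arm of chromosome 20. Each passage class is 1 line, so passage number and line cannot be told apart. The labels do not say whether the 2 samples of a line came from separate cultures, so the p-values measure only the spread between these samples.

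POU5F1 (OCT4) and SOX2 bind DNA as a pair at the enhancers and promoters of pluripotency genes, among them their own genes and NANOG, and the proteins keep each other expressed in a closed circuit. PRDM14, SALL4 and ZFP42 (REX1) are further DNA-binding proteins of this network. LIN28A and LIN28B bind precursors of the let-7 microRNAs and block their maturation, and mature let-7 in turn represses the LIN28 messages. L1TD1 is an RNA-binding protein that partners LIN28, and DPPA4 is a chromatin protein of early embryos and pluripotent cells.

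All 10 factors were expressed in every library of every line, and none passed the test between late and early hESCs. The libraries held 26874899 to 38095600 counts, and a member held between 1266 and 66553 of them in a library, far above the 3 counts taken as a floor. Mitochondrially encoded genes took 5.89% to 9.84% of the counts in 5 libraries and 17.2% to 18.5% in the other 3, which were P1 replicate 2, P3 replicate 1 and P4 replicate 1. Since TPM, the share of a library's transcripts per unit of length, divides 1 total among all genes, a larger mitochondrial share lowers the TPM of the nuclear genes in that library. Tests were therefore run on counts with TMM factors, and values in CPM below are counts scaled to the library total with those factors.

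The identity of the cells was checked with marker genes. Of 6 markers of undifferentiated hESCs, the summed level was 1759 to 1895 TPM in the early and 1405 to 1626 TPM in the late libraries. The 8 mesendoderm markers summed to 2.68 to 6.06 TPM in early and 4.44 to 7.83 TPM in late libraries. The 6 neuroectoderm markers summed to at most 3.83 TPM and the 7 trophoblast and amnion markers to at most 5.29 TPM in any library. Of 5 fibroblast markers, COL1A1 (51.3 to 150 TPM) and COL1A2 (32.2 to 73.5 TPM) were expressed, while COL3A1, LUM and DCN were near 0. The 5 fibroblast markers together summed to 140.6 to 224 TPM in early and 83.5 to 127 TPM in late libraries, a level above that of PRDM14 or LIN28B in every library. Between P3 and P2 hESCs, where 11.7% of all genes were called, 5 of the 7 mesendoderm markers tested were called, all at 3.63 TPM or less. EOMES (1.52 and 0.95 TPM in P2, 0.03 and 0.04 TPM in P3), GATA6, TBXT and GATA4 were lower in P3, and FOXA2 (0.37 and 0.32 TPM in P2, 2.72 and 3.63 TPM in P3) was higher. HAND1, a mesoderm and amnion factor, was at 1.57 and 1.85 TPM in P2 and listed at 0 in both P3 libraries. In bulk RNA, fewer cells expressing a gene and less RNA per cell cannot be told apart.

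POU5F1, the POU-domain factor at the head of the network, was the most abundant member. Its level was 1571 and 1095 TPM in P1 hESCs, 1858 and 1818 TPM in P2, 1497 and 2011 TPM in P3, and 1381 and 2421 TPM in P4. It ranked 79th to 109th among all genes of a library by TPM. The P1 samples had the lowest CPM (1458 and 1205) and did not overlap those of P2, while the highest library, P4 replicate 2, had 2123 CPM. The share of all genes in which a single line separates so was not counted, here or for NANOG, SALL4 and L1TD1 below. POU5F1 lies on chromosome 6 (31164337 to 31180731, minus strand, GRCh38) and its exons overlap TCF19 on the other strand. RSEM, which shares ambiguous reads between genes, left 0.299% to 0.405% of the reads of the POU5F1 family with its 7 copies, taken by symbol.

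SOX2, the HMG-box partner of POU5F1, was at 191 and 173 TPM in P1 hESCs, 173 and 158 TPM in P2, 129 and 134 TPM in P3, and 174 and 119 TPM in P4. In CPM no line stood apart from its neighbour in the order P1, P4, P2, P3, and the spread between the P4 samples (386 and 217 CPM) was the whole range of the 8 libraries. The ratio of POU5F1 to SOX2 in TPM, in which the scaling of the library cancels, averaged 7.28 ± 1.3 in P1, 11.1 ± 0.54 in P2, 13.3 ± 2.4 in P3 and 14.1 ± 8.8 in P4 (SD, n = 2). The 2 P4 samples alone gave 7.93 and 20.3. SOX2 is a gene with 1 annotated isoform on chromosome 3 (181711924 to 181714436, plus strand).

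NANOG, the homeodomain factor of the circuit, was less abundant than POU5F1, which exceeded it by 27.2 to 38.7 times in the line means of the TPM ratio. It was at 55.4 and 33.6 TPM in P1 hESCs, 72.9 and 54.6 TPM in P2, 46.4 and 44.7 TPM in P3, and 57.0 and 80.5 TPM in P4. The P4 samples (90.3 and 101 CPM) were higher than all other samples, and replicates of P1 and P3 differed widely (77.4 and 52.3 CPM, 83.6 and 56.0 CPM). NANOG lies on chromosome 12 (7787794 to 7799141, plus strand). Its 11 copies, taken by symbol, held 22.3% to 32.7% of the reads assigned to the family. The level of NANOG may depend on how RSEM divided reads among them. Their likeness in sequence and the reads they share were not measured. Summing the copies with NANOG gave a log2 fold change of 0.19 in late against early hESCs in place of 0.23.

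The link between POU5F1, SOX2 and NANOG can be read in the NANOG promoter. The RefSeq window from 250 bases before to 50 bases after the start (GRCh38.p14) was searched on both strands for a composite element in which TTTGCAT, part of a POU5F1 site, is followed after 1 free base by ACAATG, part of a SOX2 site. The element was present in 0.00859% of 34943 promoter windows, and NANOG was the only one of the 6 members with a window in that table that held it. POU5F1 had no window. A search for an exact sequence in so short a window cannot show that the other members lack such a site. The NANOG element starts 120 bases before the start and is given here with 8 bases on each side (12:7789274-7789303, plus strand), the element in capitals.
NANOG: cagctactTTTGCATTACAATGgccttggt
The element is the sequence that the 2 proteins of the circuit meet at NANOG, and no binding was measured in these samples.

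PRDM14, a zinc-finger factor that represses differentiation genes, had the lowest median TPM of the 6 transcription factors. It was at 37.9 and 30.7 TPM in P1 hESCs, 38.7 and 43.6 TPM in P2, 37.2 and 27.97 TPM in P3, and 44.4 and 25.2 TPM in P4. Its replicates were close in P1 (64.3 and 62.3 CPM) and P2 (63.5 and 74.5 CPM) and far apart in the late lines. P3 replicate 1 was 0.93 and P4 replicate 1 was 1.10 higher on the log2 CPM scale than the other replicate, while the largest difference between any pair of lines was 0.13 on that scale in the edgeR fit. SALL4, a zinc-finger factor that sits with the NuRD complex, was at 73.6 and 60.2 TPM in P1 hESCs, 73.6 and 83.9 TPM in P2, 33.9 and 56.1 TPM in P3, and 47.3 and 74.6 TPM in P4. Both P3 samples (152 and 161 CPM) were below all others, the lowest of which had 180 CPM. SALL4 is on chromosome 20 (51782331 to 51802520, minus strand). It is not among the genes that the text of the study places at the gained locus.

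ZFP42, a zinc-finger protein known as a marker of undifferentiated cells, varied most of the 10. It was at 58.1 and 32.6 TPM in P1 hESCs, 108 and 101 TPM in P2, 27.5 and 69.7 TPM in P3, and 92.6 and 107 TPM in P4. The highest library was 3.93 times the lowest in TPM and 2.89 times in CPM. P2 and P4 samples were all above P1 and P3 samples, so the early and late groups overlapped. This split was read from the values, and the share of all genes that show it was not counted. The lowest libraries, P1 replicate 2 and P3 replicate 1, were among the 3 with a high mitochondrial share, and the third of these, P4 replicate 1, was at 204 CPM, the highest of all; the part of the mitochondrial share was not tested. ZFP42 lies on chromosome 4 (187995771 to 188005050, plus strand).

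**Figure D1:**
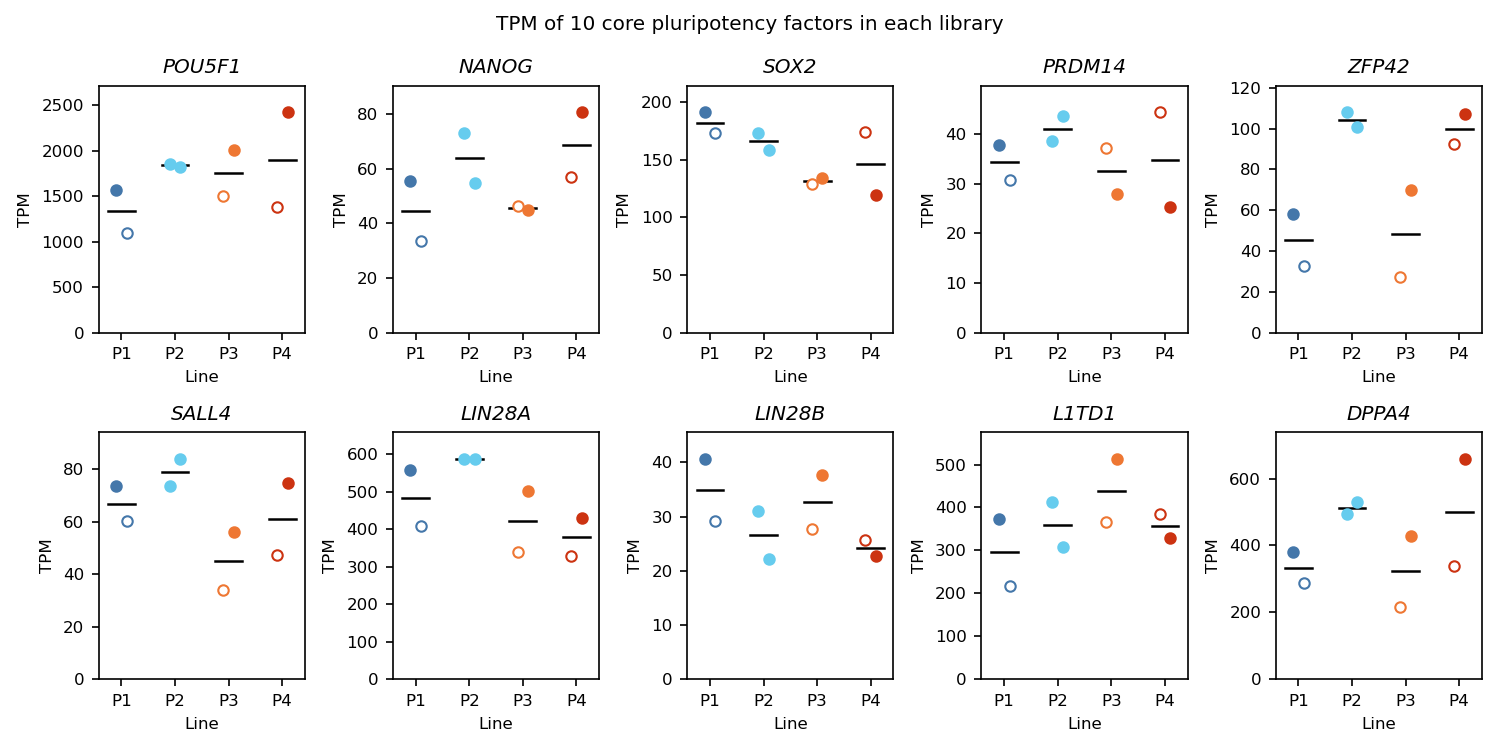
TPM of the 10 members in the 2 libraries of each line (x axis, line; y axis, TPM from 0; bar, mean of the 2 libraries). Open circles are the 3 libraries with more than 15% mitochondrial counts; ZFP42 is high in P2 and P4 (92.6 to 108 TPM) and low in P1 and P3 (27.5 to 69.7 TPM), and every member overlaps between the early and late lines in TPM.

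LIN28A was the more abundant of the LIN28 pair. It was at 559 and 408 TPM in P1 hESCs, 588 and 588 TPM in P2, 340 and 501 TPM in P3, and 330 and 431 TPM in P4. By mean CPM the order of the lines was P2, P1, P3, P4. On that scale LIN28A was the 1 member whose 4 early and 4 late samples did not overlap. P1 replicate 2 (1368 CPM) lay just above P3 replicate 1 (1366 CPM). The early and late groups did not overlap for 17.6% of the 19499 tested genes. LIN28B was at 40.6 and 29.2 TPM in P1 hESCs, 31.0 and 22.2 TPM in P2, 27.6 and 37.6 TPM in P3, and 25.7 and 22.7 TPM in P4. P1 and P3 samples (146 to 172 CPM) were above P2 and P4 samples (94.2 to 131 CPM). In TPM they overlapped, with P2 replicate 1 (31.0 TPM) above P3 replicate 1 (27.6 TPM). This split of the lines was read from the values, and the share of all genes that show it was not counted. LIN28A exceeded LIN28B by 13.9 ± 0.16 times in P1, 22.7 ± 5.3 times in P2, 12.8 ± 0.73 times in P3 and 15.9 ± 4.3 times in P4 (TPM ratio, SD, n = 2).

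The let-7 family that the LIN28 proteins hold back is shown by 3 of its members (RefSeq, GRCh38.p14), with the seed (bases 2 to 8) in capitals. All 9 mature sequences of the family listed there share this seed.
hsa-let-7a-5p: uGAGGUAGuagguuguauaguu
hsa-let-7g-5p: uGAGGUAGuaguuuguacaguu
hsa-miR-98-5p: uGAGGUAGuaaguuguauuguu
The seed pairs with CTACCTC, which was searched on the sense strand of the longest annotated 3′ UTR of each gene (GENCODE, GRCh38). It occurs once in LIN28A, 4 times in LIN28B and once in SALL4, and in none of the other 7 members. Of 19132 genes with a 3′ UTR, 9.71% held at least 1 match. The LIN28A match and 2 of the 4 LIN28B matches are given with 11 bases on each side and the match in capitals; they lie at 1:26427352-26427380, 6:105078816-105078844 and 6:105081425-105081453, all on the plus strand.
LIN28A: agcctattgaaCTACCTCatttttgccaa
LIN28B: ggttgcaaagtCTACCTCatgcaagtata
LIN28B: acagcaaaaggCTACCTCatagttgatac
A match to the seed is a description of the sequence, and let-7 itself was not measured in these mRNA libraries.

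L1TD1, derived from a LINE-1 element and bound to LIN28, was at 373 and 218 TPM in P1 hESCs, 413 and 308 TPM in P2, 365 and 513 TPM in P3, and 384 and 328 TPM in P4. Both P3 samples (1498 and 1473 CPM) were the highest of all, and P1 replicate 2 was the lowest (750 CPM). DPPA4 was at 381 and 286 TPM in P1 hESCs, 495 and 531 TPM in P2, 216 and 429 TPM in P3, and 339 and 659 TPM in P4. In CPM it ranged only 1.58-fold over the 8 libraries (491 to 778 CPM), against a 3.05-fold range in TPM.

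The difference between the TPM and CPM of DPPA4 goes only in part with the lengths that RSEM gave it. TPM is per length, and RSEM weights the isoforms of a gene by their abundance to give a mean transcript length. For DPPA4, with 8 annotated isoforms, this length was 2251 and 2279 bases in P1 hESCs, 1862 and 1666 bases in P2, 2231 and 2202 bases in P3, and 2326 and 1708 bases in P4. Both P2 libraries and P4 replicate 2 were short and the other 5 were long, and these 3 were also the libraries with the highest DPPA4 TPM. The P3 libraries had nearly the same length but 216 and 429 TPM, against 491 and 674 CPM. P3 replicate 1, the lower, is a library of high mitochondrial share. In TPM over nuclear genes alone the P3 libraries were at 317 and 513. NANOG varied less (1675 to 1949 bases), SALL4 from 3833 to 4206 bases and POU5F1 from 1327 to 1370 bases. SOX2, LIN28B and L1TD1, with 1 isoform each, had the same length in all libraries. The lengths were not tested.

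**Figure D2:**
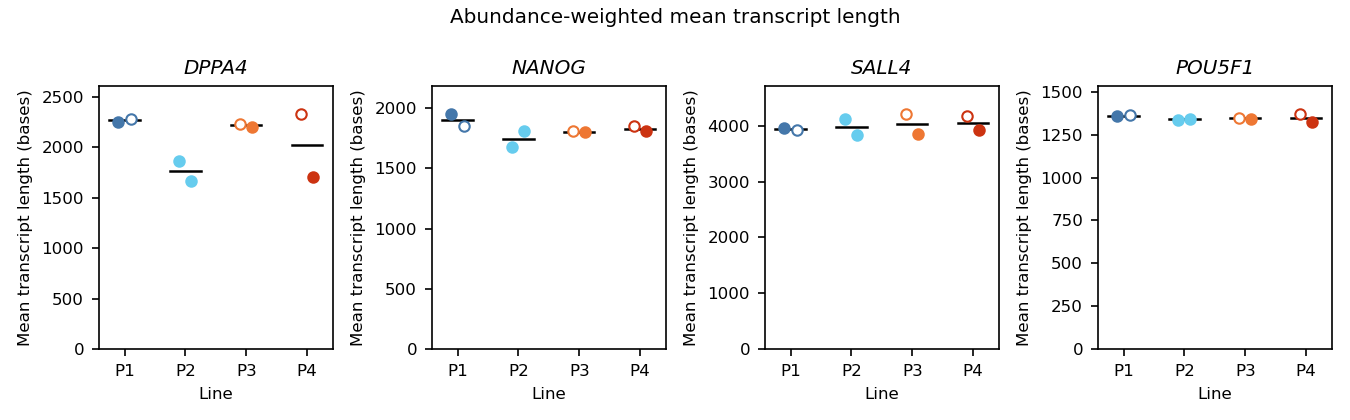
Abundance-weighted mean transcript length of DPPA4, NANOG, SALL4 and POU5F1 in each library (x axis, line; y axis, bases from 0; bar, mean of the 2 libraries; open circles, the 3 libraries with more than 15% mitochondrial counts). DPPA4 is shorter in both P2 libraries (1862 and 1666 bases) and in P4 replicate 2 (1708 bases) than in the other 5 (2202 to 2326 bases).

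Whether the pluripotency network differs after long culture was asked by setting the 4 late samples against the 4 early ones. None of the 10 members passed an adjusted p-value of 0.05 (edgeR's quasi-likelihood test, Benjamini-Hochberg over all genes tested), in a comparison that called 7.54% of the genes. At an unadjusted p under 0.05 there were 3 members, and 4 with DESeq2, which also called none after adjustment. Of the 19499 genes tested, 4967 had such a p-value with edgeR and 5266 with DESeq2. The estimate was above 0 for 7 members and below 0 for 3, and their median was 0.07 on the log2 scale against 0.01 over all genes tested.

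The intervals show what size of change these samples leave room for. They treat the 2 samples of each line as independent, while the comparison rests on P3 and P4 against P1 and P2 hESCs. They may therefore be too narrow for late against early hESCs in general. The largest estimate was that of L1TD1, with a log2 fold change of 0.43 ± 0.19 (SE, 95% interval 0.02 to 0.85, adjusted p = 0.177 by edgeR). SALL4 had -0.33 ± 0.14 (interval -0.65 to -0.02, adjusted p = 0.177 by edgeR). LIN28A had -0.30 ± 0.14 (interval -0.60 to -0.00329, adjusted p = 0.192 by edgeR). POU5F1 had 0.32 ± 0.15 and an interval from -0.02 to 0.65. Taken so, the interval of each of the 10 members excludes a 2-fold change between these samples in either direction. That is the size of change the study asked of a differentially expressed gene. The exclusion does not extend to other late or early lines. For ZFP42 the exclusion did not hold without P2 replicate 1, P2 replicate 2, P3 replicate 1 or P3 replicate 2. The upper limit was then 1.14, 1.13, 1.04 and 1.07. The widest interval was that of ZFP42, from -0.69 to 0.89, and the intervals of NANOG (-0.21 to 0.67), SOX2 (-0.59 to 0.24), PRDM14 (-0.50 to 0.56), LIN28B (-0.44 to 0.49) and DPPA4 (-0.23 to 0.45) all include 0.

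**Figure D3:**
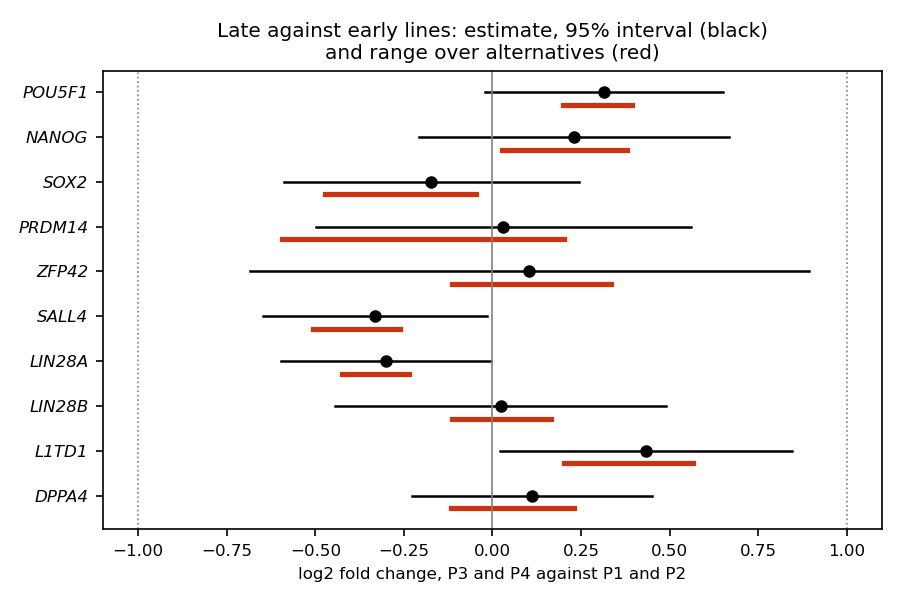
Log2 fold change of each member in P3 and P4 against P1 and P2 hESCs (x axis; black point and line, edgeR estimate and 95% interval, 4 samples against 4; red line, lowest to highest estimate over the alternative settings; dotted lines, a 2-fold change). Every interval lies within the dotted lines, from -0.69 to 0.89 for ZFP42 and from 0.02 to 0.85 for L1TD1.

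ZFP42 was the only member called between the 4 lines. The test over all lines gave an adjusted p of 0.019 (edgeR), in a comparison that called 13.1% of the genes. ZFP42 was at 89.1 ± 26 CPM in P1, 189 ± 4.2 in P2, 99.2 ± 39 in P3 and 200 ± 7.0 in P4 (mean ± SD, n = 2). It rose in P4 against P1 hESCs by a log2 fold change of 1.16 ± 0.27 (SE, adjusted p = 0.027 by edgeR), where 5.94% of genes were called. It fell in P3 against P2 hESCs by 0.93 on the log2 scale (SE 0.27, adjusted p = 0.045 by edgeR), where 11.7% of genes were called, among them the mesendoderm markers and HAND1 given above; their part in the ZFP42 difference was not tested. Against P1 it was 1.08 ± 0.27 in P2 (adjusted p = 0.31 by edgeR, in a comparison that called 0.00513% of genes), and against P3 it was 1.01 ± 0.27 in P4 (adjusted p = 0.065 by edgeR, 3.31% called). The mean level in these samples thus alternated from line to line and did not follow the passage label. Of the steps between successive lines, only P3 against P2 was called.

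The ZFP42 calls were lost without some single libraries, with a fold change that shrank in some of these fits and not in others. Leaving out other libraries enlarged the fold change of ZFP42. Without P3 replicate 2 it was -1.40 on the log2 scale in P3 against P2 and 1.48 in P4 against P3. Without P1 replicate 1 it was 1.49 in P4 against P1. The call over the 4 lines was lost without P1 replicate 2, the lowest library (adjusted p = 0.077 by edgeR). The P4 against P1 call was lost without P1 replicate 2 (log2 fold change 0.89, adjusted p = 0.29), P4 replicate 1 (1.13, adjusted p = 0.072) or P4 replicate 2 (1.198, adjusted p = 0.098, edgeR). The P3 against P2 call was lost without P3 replicate 1 (log2 fold change -0.57, adjusted p = 0.23 by edgeR). It was also lost, with a log2 fold change of -0.90 to -0.95, without P2 replicate 1, P2 replicate 2, P1 replicate 1, P4 replicate 1 or P4 replicate 2 (adjusted p of 0.16, 0.20, 0.051, 0.051 and 0.052 by edgeR). The study's thresholds were an adjusted p under 0.01 with an absolute log2 fold change above 1. In the main edgeR fit, with the filter on low counts and all samples, no member passed them in any comparison. With no filter, ZFP42 passed them in P2 against P1 (log2 fold change 1.10, adjusted p = 0.00040 by edgeR). It also did so in P4 against P1 (1.19, adjusted p = 1.5e-05) and P4 against P3 (1.007, adjusted p = 0.00069), and over the 4 lines (adjusted p = 1.0e-07, all by edgeR). The share of all genes passing them without the filter was not counted. With DESeq2, the study's tool, ZFP42 passed them over the 4 lines (adjusted p = 8.6e-05), in P4 against P1 (log2 fold change 1.17, adjusted p = 0.0010) and in P4 against P3 (1.00, adjusted p = 0.0093), where they called 11.2%, 4.44% and 3.08% of all genes, and no other member passed. In the main edgeR fit these thresholds called 2.20% of all genes in late against early hESCs and 4.78% over the 4 lines. Against P1 they called 0.00% in P2, 3.93% in P3 and 2.11% in P4. Against P2 they called 3.42% in P3 and 1.75% in P4, and 0.815% in P4 against P3.

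**Figure D4:**
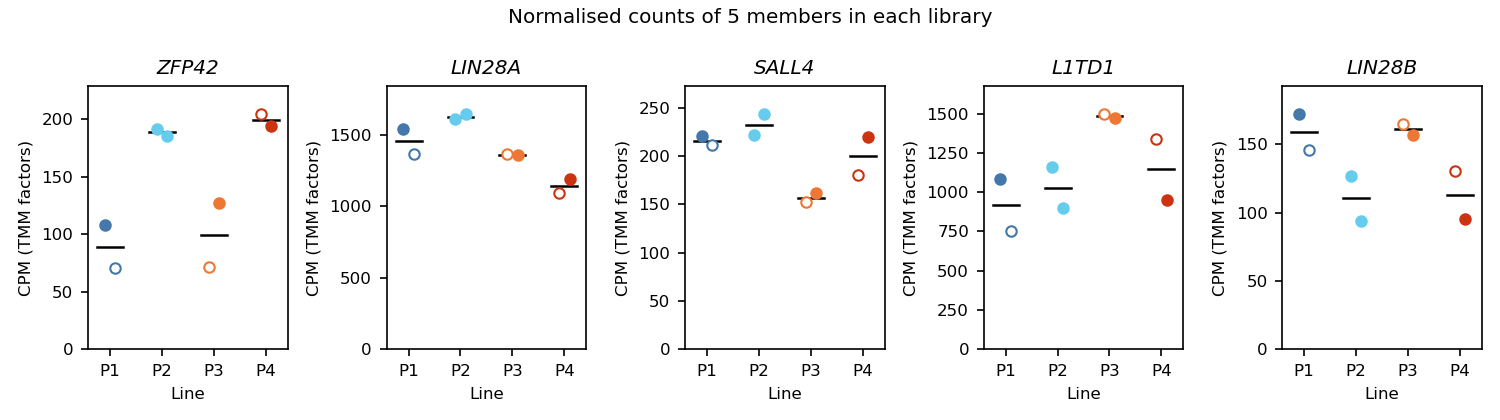
CPM with TMM factors of ZFP42, LIN28A, SALL4, L1TD1 and LIN28B in the 2 libraries of each line (x axis, line; y axis, CPM from 0; bar, mean of the 2 libraries; open circles, the 3 libraries with more than 15% mitochondrial counts). ZFP42 lies at 71 to 127 CPM in P1 and P3 and at 186 to 204 CPM in P2 and P4, and LIN28B is higher in P1 and P3 (146 to 172 CPM).

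In the edgeR fit with all samples no other member was called between any pair of lines, although several had an unadjusted p under 0.05. Of the 19499 genes tested, between 1782 (P2 against P1) and 5760 (P3 against P1) had such a p-value in a pair of lines. L1TD1 in P3 against P1 hESCs had a log2 fold change of 0.69 ± 0.25 (adjusted p = 0.085 by edgeR, 12.5% of genes called), and was called with DESeq2 (adjusted p = 0.035), with no filter on low counts (0.018) and with the replicate block (0.038). SALL4 in P3 against P2 had -0.57 ± 0.19 (adjusted p = 0.068 by edgeR), and was called with DESeq2 (adjusted p = 0.032). LIN28A in P4 against P2 had -0.51 ± 0.19 (adjusted p = 0.18 by edgeR, 4.44% of genes called). LIN28B in P2 against P1 had -0.53 ± 0.22 (adjusted p = 0.52 by edgeR). NANOG in P4 against P1 had 0.56 ± 0.24 (adjusted p = 0.20 by edgeR). The median gap between the 2 replicates of a line was 0.11 to 0.37 on the log2 scale over the members.

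**Figure D5:**
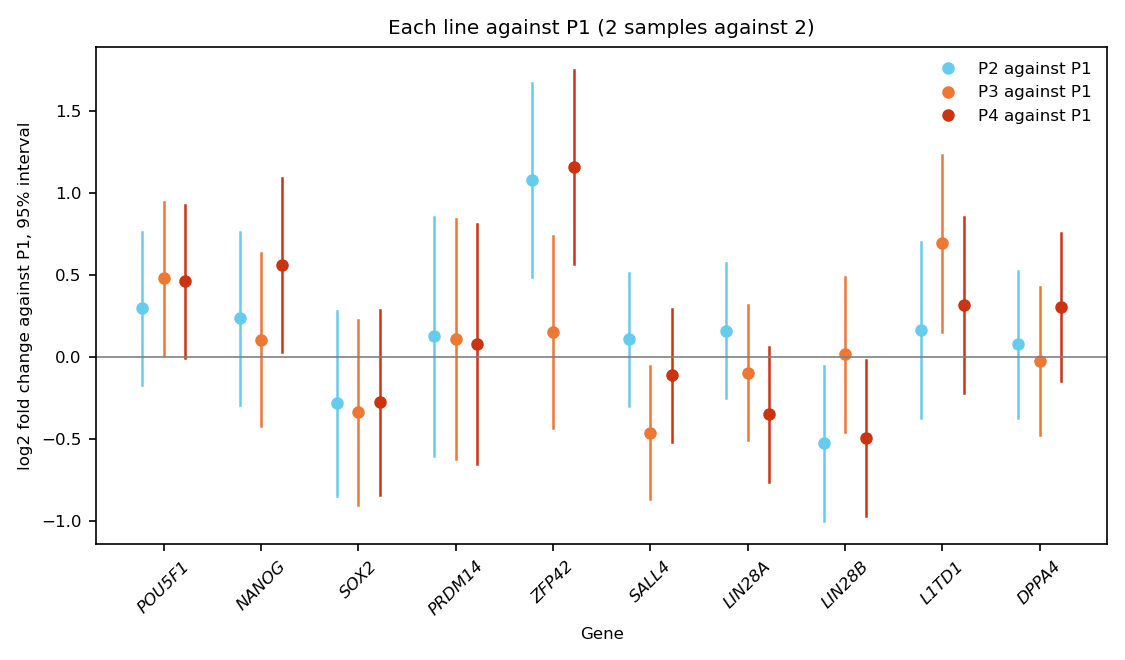
Log2 fold change of each member in P2, P3 and P4 against P1 hESCs (y axis; point and line, edgeR estimate and 95% interval, 2 samples against 2; x axis, gene). ZFP42 stands above 0 in P2 (1.08) and P4 (1.16) and near 0 in P3 (0.15).

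The genes most like ZFP42 were sought among 10149 other genes with a mean of at least 10 CPM, by the root-mean-square distance of their log2 CPM, each centred on its own mean over the 8 samples. The closest were TRIM35 (distance 0.29), CCDC113 (0.30) and GADD45A (0.31), against a median distance of 0.67. TRIM35, a tripartite-motif protein, had 19.1 and 15.1 CPM in P1 hESCs, 25.3 and 24.8 in P2, 16.7 and 19.97 in P3, and 29.5 and 29.1 in P4. GADD45A, a stress-response gene, had 10.5 and 6.77 CPM in P1, 10.8 and 11.9 in P2, 6.51 and 7.33 in P3, and 18.1 and 16.5 in P4. Since they were chosen for this pattern, their values are a description.

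Replicates of 1 line differed in members in ways that went with the mitochondrial share in some lines and not in others. In P1 hESCs, 9 of the 10 members were lower in the library with the higher mitochondrial share (18.5% against 9.84%), where 50.2% of all tested genes were. In P3 hESCs 3 of 10 were lower (18.4% against 7.53%; 48.3% of all genes), and in P4 hESCs 5 of 10 (17.2% against 5.89%; 51.7% of all genes). In P4 hESCs the high-mitochondrial library had more PRDM14 (91.1 against 42.6 CPM) and SOX2 (386 against 217 CPM) and less POU5F1 (1550 against 2123 CPM). In P3 hESCs it had less ZFP42 (71.3 against 127 CPM) and more PRDM14 (89.5 against 47.1 CPM). The part of the mitochondrial share in these differences was not tested.

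Without the 3 libraries of high mitochondrial share, the late against early comparison again called no member (1.64% of genes called). Over the 4 lines it called 8 members, POU5F1, NANOG, SOX2, PRDM14, ZFP42, LIN28A, LIN28B and L1TD1, in a fit that called 33.6% of all genes. In that fit only P2 hESCs had 2 samples, and the lone samples of the other lines were assumed to vary like the P2 pair, the pair of replicates with the smallest median gap over all tested genes (0.19 on the log2 scale). ZFP42 in P4 against P1 was then 0.83 on the log2 scale (adjusted p = 0.0047 by edgeR, 16.4% of genes called).

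Of 24 other pluripotency-associated genes, 3 were called higher and 3 lower in late hESCs, in a comparison that called 7.54% of all genes, and the median of the 24 on the log2 scale was 0.18. LEFTY1, an inhibitor of NODAL, was at 5.01 to 12.7 TPM in the 4 early and 32.6 to 102 TPM in the 4 late libraries, a log2 fold change of 3.17 ± 0.47 (adjusted p = 0.0025 by edgeR). NODAL, the ligand that maintains the primed state through SMAD2 and SMAD3, was at 2.31 to 2.62 TPM in early and 8.01 to 28.9 TPM in late libraries (3.15 ± 0.43, adjusted p = 0.0015 by edgeR), and LEFTY2 rose by 2.49 ± 0.37 (adjusted p = 0.0025 by edgeR). ZIC2, a zinc-finger factor, fell by 1.10 on the log2 scale (77.9 to 93.5 TPM in early, 29.5 to 37.3 TPM in late libraries, adjusted p = 0.0015 by edgeR). FGF2 fell by 0.83 (adjusted p = 0.025) and PODXL, a surface marker, by 0.65 (adjusted p = 0.028, both by edgeR). Over the 4 lines, where 13.1% of all genes were called, 11 of the 24 were, with GDF3, TERT, DPPA2, UTF1 and OTX2 beside these 6. DPPA2, the partner of DPPA4 in chromatin, ranged from 2.42 to 24.6 TPM, and was highest in P4 replicate 2 (24.6 TPM).

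Partners of the LIN28 proteins, PRDM14 and SALL4 were counted in the same way. Of 15 genes of the LIN28 and let-7 pathway, DROSHA, which cuts the primary microRNA, was the only one called in late against early hESCs (0.44 ± 0.12, adjusted p = 0.048 by edgeR; 7.54% of all genes called), and none was called over the 4 lines. HMGA2, a let-7 target, was lower in P4 than in P3 hESCs by 1.01 on the log2 scale (SE 0.25, adjusted p = 0.047 by edgeR). Of 12 subunits of the NuRD complex and PRDM14 corepressor partners, none was called in late against early hESCs or over the 4 lines. MTA1, a NuRD subunit, fell by 0.67 in P3 against P1 hESCs (SE 0.19, adjusted p = 0.037 by edgeR; 12.5% of all genes called).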

How the data were processed

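Stranded mRNA libraries were sequenced from 2 samples of each of the 4 hESC lines. Per the submitters' processing notes the reads were cleaned with Trim Galore, aligned with STAR 2.7.3a to GRCh38 and quantified with RSEM 1.3.3; the annotation and the use of strand in counting are not given in the sources used here. The authors deposited, per gene, an expected count (not normalized), a TPM value per length, an FPKM value (not used here) and a mean transcript length. The samples were not pooled.

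Expected counts were rounded and fitted with edgeR 4.0.16 in R 4.3.3 (TMM factors, filterByExpr by line, quasi-likelihood test, Benjamini-Hochberg over 19499 genes; called at an adjusted p under 0.05). Late against early used 2 groups of 4 samples and single lines used 4 groups of 2. Standard errors are the fold change over the square root of F. Alternatives were DESeq2 1.42.0 (the study's tool), its size factors, no count filter, a replicate block, mitochondrial genes removed, limma 3.58.1 on log2 TPM with a pseudocount of 1 or 0.1, summed copies, the study's thresholds, other subsets of samples, and each sample left out. Leaving out the 3 libraries above 15% mitochondrial counts, and the study's thresholds in DESeq2, were chosen after seeing the data. The scripts were tested on simulated data.

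The members and gene lists were chosen with earlier results of these data known. All members were named; of each other list, at most 6 genes called in late against early hESCs or over the 4 lines, by size of change, and the 3 genes likest to a member called over the lines. HMGA2, MTA1, TBXT and GATA4 were named after their values were seen. Symbols matched 56558 of 60675 identifiers; positions are from GENCODE release 29 (GRCh38). Counting error only is covered by the floor of 3 counts.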

Additional observations from a re-analysis of the deposited data

Results flagged for a closer look

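The effect of a line against P1 hESCs differed between P3 and P2 hESCs for ZFP42, by a log2 difference of -0.93 (adjusted p = 0.045, edgeR's test of P3 against P2 itself, all tested genes). In the 20 groups of 4 libraries checked (10 members, early and late), no library stood outside the others by Dixon's 95% critical value, where about 1 in 20 is flagged by chance.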

How the results depend on the processing

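No member was called in late against early hESCs under any of the 20 alternatives, which called 1.64% to 15.9% of all genes. For the 4 lines, the count was the same, with ZFP42 called, in 14 of 19 alternatives. It was 0 with the study's thresholds in edgeR and with both TPM fits in limma, 0 to 1 when 1 library was left out, and 8 without the 3 high-mitochondrial libraries (which calls ZFP42 too). P2 against P1 gave 1 member (ZFP42) with DESeq2 (0.503% of all genes called), with no filter on low counts (1.41%) and with only the 4 samples compared (1.2%). P3 against P1 gave 1 member (L1TD1) with DESeq2 (16% of all genes called), with no filter (10%) and with the replicate block (13.1%). P4 against P1 gave 0 with the study's thresholds in edgeR (2.11% of all genes called) and with the TPM fits (2.46% and 2.37%). Its ZFP42 call was lost without some single libraries, as given above. P3 against P2 gave 2 with DESeq2 (ZFP42 and SALL4), 0 with the study's thresholds in edgeR or DESeq2, the replicate block and both TPM fits, 0 to 1 without 1 library and 5 without the 3 libraries. Of all genes, P3 against P2 called 15.2% with DESeq2, against 11.7% in the main fit. The study's thresholds called 3.42% there with edgeR and 6.63% with DESeq2. The replicate block called 12.7% and the TPM fits 4.5% and 4.93%. P4 against P2 gave members only without the 3 libraries. In that fit, where only P2 hESCs kept 2 samples, more members were called than in the main fit for every pair of lines. A larger share of all genes was called there as well. P4 against P3 gave 1 (ZFP42) with DESeq2 (6.72% of all genes called), also under the study's thresholds (3.08%), and with no filter (5.06%). The count moved without P3 replicate 2 as well. The cause was not tested, apart from fits with fewer samples.

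Samples share replicate numbers only: replicate differences correlated across genes between lines with r from -0.090 to 0.138. Under the block 1229 genes were called in late against early hESCs in place of 1470, the estimate of PRDM14 was -0.0536, and ZFP42 in P3 against P2 had an adjusted p of 0.051 (edgeR).

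Estimates near 0 changed sign in 22 of 180 values of late against early hESCs, none of them called. In log2(TPM + 1) and log2(TPM + 0.1), whose median over all genes shifts to -0.09 and -0.14, PRDM14 was -0.18 and -0.19, ZFP42 -0.0288 and -0.0300, LIN28B -0.10 and -0.11, and DPPA4 -0.12 and -0.12. Without 1 library, PRDM14 ranged from -0.14 to 0.20, ZFP42 from -0.12 to 0.34 and LIN28B from -0.11 to 0.17. Without the 3 libraries, PRDM14 was -0.59, ZFP42 -0.0166 and LIN28B -0.0566. The ratio between the lines with the highest and lowest mean TPM of SOX2 was 1.38 in TPM and 1.26 in CPM, and the other 19 of 20 such ratios, in CPM or in TPM over nuclear genes, stayed within the spread of replicates.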
